A study of Mus musculus with 6 samples.

Results

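The genes described here are 10 parts of the tumour necrosis factor (TNF) and Fas death-receptor pathway, taken by symbol from the 21720 genes of the deposited table. They comprise 3 ligands (Tnf, Fasl and Tnfsf10), 4 receptors (Tnfrsf1a, Tnfrsf1b, Fas and Tnfrsf10b) and 3 intracellular parts (Fadd, Cflar and Ripk3). All 10 were in the table, and all 10 passed the filter on low counts that left 14963 genes for testing. Death ligands are made mainly by activated T cells, NK cells and macrophages, and they bind receptors on neighbouring cells. Receptors with a cytoplasmic death domain (TNFR1, Fas and the TRAIL receptor) recruit the adaptor FADD and caspase-8, which starts apoptosis, while c-FLIP, the product of Cflar, restrains caspase-8 and RIPK3 drives necroptosis when caspase-8 is inactive. TNFR2, the product of Tnfrsf1b, has no death domain and signals to NF-κB, mostly on leukocytes.

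To investigate what luteolin, a plant flavonoid, changed in these tumours, H22 cells, a mouse hepatocellular carcinoma line, had been grown under the skin of wild-type female BALB/c mice of 6 to 8 weeks. The control group received 0.5% carboxymethyl cellulose sodium and the luteolin group 200 mg/kg luteolin, both by gavage in 0.2 mL once a day for 21 days, from a tumour volume of about 50 mm3. Each group gave 3 RNA-seq libraries, named control replicates 1 to 3 and luteolin replicates 1 to 3. The labels do not say that the libraries came from separate mice, so the p values measure the spread between libraries, which may be technical. The tumours grew outside the liver in mice with an intact immune system, and the RNA came from whole tumour tissue with its host cells, so that more cells of a type and more RNA per cell cannot be told apart for any gene below.

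Total counts ranged from 61081637 to 80442954 per library. The Spearman correlation of transcript GC content with the deviation of each gene from its mean level differed between libraries. It was 0.433, -0.169 and -0.532 in control replicates 1, 2 and 3. In luteolin replicates 1, 2 and 3 it was -0.183, 0.438 and -0.365. Of 12 hepatocyte markers, the most abundant were Trf (7469 to 24247 counts per library), Afp (2000 to 4316) and Alb (56 to 8118), whereas the transcription factor gene Hnf4a lay at 0 to 20 counts. The summed level of 14 T and NK cell markers was 18.6 to 23.4 CPM (counts scaled to each library's normalized total) in the control libraries and 71.6 to 126 in the luteolin libraries. The summed level of 12 macrophage and monocyte markers was 1961 to 2287 CPM and 2496 to 3806 CPM in the same order, and that of 10 endothelial and fibroblast markers 1506 to 1682 and 2161 to 5277. Keratinocyte markers summed to 14.5 to 19.1 CPM in the control libraries and to 403, 9441 and 22.0 CPM in luteolin replicates 1, 2 and 3. The control sum was mostly Ivl (9.31 to 13.7 CPM) and Krt10 (3.23 to 4.28 CPM). Krt14 was at 0 counts in all control libraries and at 9606, 203754 and 277 counts in luteolin replicates 1, 2 and 3. Luteolin replicate 2 therefore stood apart in the amount, and values without it are given for some of the genes below. Since every luteolin library held Krt14 RNA, leaving out replicate 2 does not remove this difference between the groups. The part of these cell markers in the results below was not tested.

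The ligands and 3 of the 4 receptors were higher in the luteolin tumours, the TRAIL receptor gene Tnfrsf10b was lower, and the groups overlapped for the intracellular parts. Of the 10 genes, 5 met the study's threshold upwards (an unadjusted p under 0.05 with a fold change over 2) and 0 downwards, where 11.3% of all tested genes met it upwards and 1.52% downwards. These 5 were Tnf, Fasl, Tnfsf10, Fas and Tnfrsf1b. At a Benjamini-Hochberg adjusted p under 0.05 in edgeR's quasi-likelihood test the count was 0 of 10, where 1.52% of all tested genes passed in either direction. At an unadjusted p under 0.05 it was 7 of 10, with Tnfrsf1a added to the 5 and Tnfrsf10b in the other direction, against a background of 14.0% higher and 6.44% lower. DESeq2, the tool named in the study, gave 4 genes higher (Tnf, Tnfsf10, Tnfrsf1b and Fas) and 1 lower (Tnfrsf10b) at an adjusted p under 0.05, where it called 9.59% and 2.58% of its genes. limma's voom with sample quality weights gave 5 higher and 1 lower at the same adjusted p, where it called 12.6% and 8.76%. Offsets for GC content and length gave 4 higher and 1 lower in edgeR, where 4.05% and 2.41% of all genes passed, and values divided by 4 gave 3 higher and 0 lower, where 2.41% and 0.339% passed. The verbs rose and fell are therefore kept below for genes that passed the adjusted edgeR test. The median log2 fold change of the 10 genes was 0.93, against -0.01 over all tested genes, and it was 0.64 without luteolin replicate 2.

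**Figure D1:**
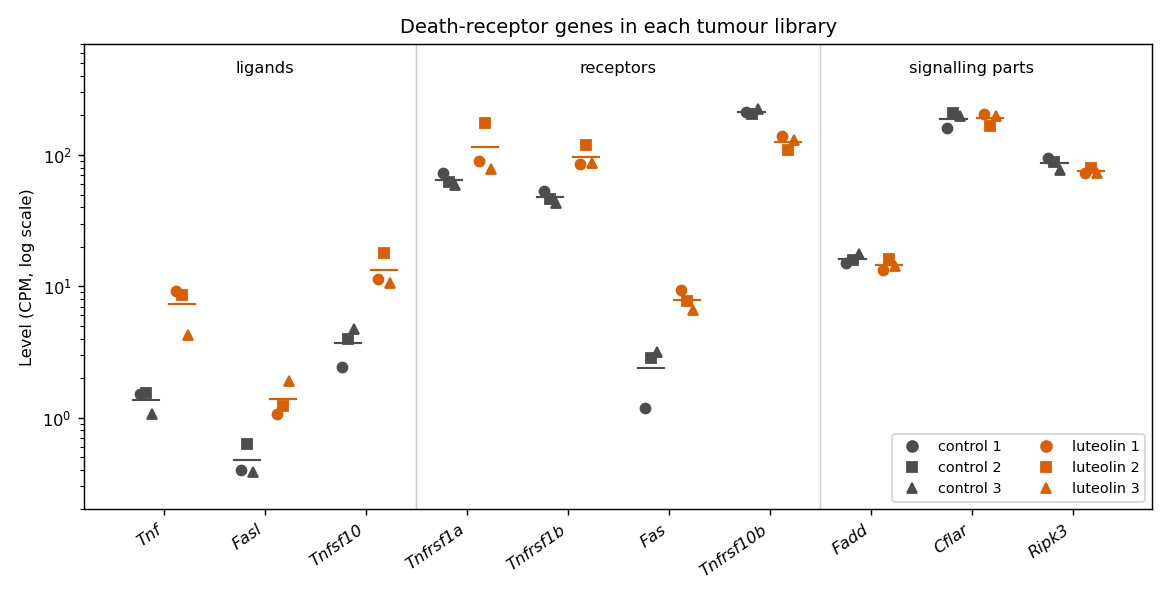
Level of each of the 10 genes (CPM, logarithmic axis) in the 3 control libraries (grey) and the 3 luteolin libraries (orange), with the replicate given by the marker shape and the group mean by a line. The 3 ligands lay at 0.388 to 4.73 CPM in the control group and at 1.06 to 18.0 in the luteolin group, and Tnfrsf10b is the gene whose luteolin libraries all lay below the control libraries.

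Tnf encodes TNF-α, the founding ligand of the family, made by macrophages and T cells. Control replicates 1, 2 and 3 held 105, 99 and 69 counts and luteolin replicates 1, 2 and 3 held 562, 716 and 270 counts, which averaged 1.37 ± 0.258 CPM and 7.32 ± 2.70 CPM (SD, n = 3 each). The groups did not overlap, although luteolin replicate 3 held less than either of the other luteolin libraries. Luteolin against control, the log2 fold change was 2.42 (standard error 0.43, 95% interval 1.40 to 3.43), a 5.35-fold difference with a Benjamini-Hochberg adjusted p of 0.0505 in edgeR's quasi-likelihood test. This was the largest fold change of the 10 genes in edgeR, and it was 2.31 without luteolin replicate 2. Leaving out luteolin replicate 3 gave an edgeR adjusted p of 0.0484, and leaving out any other library gave 0.0527 or more.

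Tnf is also the gene of this set for which the study designed a primer pair, shown here because the study measured Tnf with it by PCR. Matched to the transcripts of GENCODE M21 (build GRCm38), both primers found Tnf alone, with an amplicon of 132 bases in transcript Tnf-202. The forward primer did not match Tnf-201, the longer transcript, whose length scales the level of Tnf per kilobase below. The forward primer spans the junction of exons 2 and 3 on chromosome 17 (35200554 to 35201094) and the reverse primer lies in exon 3 (35200443 to 35200462), both in coding sequence. They are given 5′ to 3′.
Tnf forward primer: cctcacactcacaaaccacca
Tnf reverse primer: acaaggtacaacccatcggc

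Tnfsf10 encodes TRAIL, the ligand of the TRAIL receptor, and is an interferon-inducible gene of several leukocyte types. It had 2.42, 3.94 and 4.73 CPM in the control libraries and 11.4, 18.0 and 10.6 CPM in the luteolin libraries, in replicate order. Every luteolin library lay above every control library, with the highest value in luteolin replicate 2. The log2 fold change was 1.85 (standard error 0.37, edgeR adjusted p = 0.0661 after Benjamini-Hochberg adjustment), and 1.60 without luteolin replicate 2.

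Fasl encodes Fas ligand, which cytotoxic T cells and NK cells carry to their targets. It was the least abundant of the 10 genes, at 28, 41 and 25 counts in the control libraries and 65, 103 and 121 counts in the luteolin libraries. As CPM these were 0.401, 0.633 and 0.388 against 1.06, 1.23 and 1.89, so that the groups did not overlap and luteolin replicate 3 was highest, the reverse of its place for Tnf. The log2 fold change was 1.56 with a wide 95% interval of 0.32 to 2.79 (standard error 0.52, edgeR adjusted p = 0.169 after Benjamini-Hochberg adjustment). Fasl did not meet the study's threshold without luteolin replicate 3, where the log2 fold change was 1.22, nor without control replicate 1 or 3, where it was 1.42 and 1.43.

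The receptors split by gene. Tnfrsf1b (TNFR2) had 53.1, 46.5 and 43.2 CPM in the control libraries and 86.0, 119 and 86.6 CPM in the luteolin libraries. The luteolin libraries all lay above the control libraries, and their lowest value exceeded the highest control value by more than the spread of the control group (SD 5.06 CPM, n = 3). The log2 fold change was 1.03 (standard error 0.19, 95% interval 0.59 to 1.47) with an edgeR adjusted p of 0.0531 after Benjamini-Hochberg adjustment. Since this lies at the 2-fold limit of the study's threshold, the call was lost without luteolin replicate 2 (0.88), control replicate 2 (0.99) or control replicate 3 (0.96), and also with voom (0.90) and with GC content and length offsets (0.72).

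Fas encodes the receptor of Fas ligand. Control libraries had 1.19, 2.84 and 3.16 CPM of it and luteolin libraries 9.40, 7.74 and 6.57 CPM. The groups did not overlap, and control replicate 1 was the low library of its group. The log2 fold change was 1.72 (standard error 0.45, edgeR adjusted p = 0.108 after Benjamini-Hochberg adjustment) and 1.37 without control replicate 1. With GC content and length offsets it was 1.63. The Fas transcript has 43.4% GC, and control replicate 1 was the control library with a positive GC correlation (0.433). The part of GC content was not tested. An annotated small RNA gene, Gm27818, lies within the Fas gene on the same strand, and its reads could have been counted with Fas.

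Tnfrsf1a (TNFR1), the death-domain receptor of TNF present on most cells, had 72.5, 61.8 and 58.7 CPM in the control libraries. In luteolin replicates 1, 2 and 3 it had 89.6, 175 and 78.2 CPM. All 3 lay above the control libraries, and the highest by far was luteolin replicate 2, the library with the most keratinocyte marker RNA. The difference was 0.83 on the log2 scale (standard error 0.31, edgeR adjusted p = 0.205 after Benjamini-Hochberg adjustment) and 0.40 without that library.

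Tnfrsf10b (DR5), the mouse TRAIL receptor with a death domain, moved the other way. It had 214, 206 and 223 CPM in the control libraries and 138, 108 and 130 CPM in the luteolin libraries, with no overlap. Its log2 fold change was -0.77 (standard error 0.15, 95% interval -1.12 to -0.42), a level 1.70-fold lower with an edgeR adjusted p of 0.0613 after Benjamini-Hochberg adjustment. The value was -0.65 without luteolin replicate 2 and between -0.84 and -0.74 with any other library left out. All luteolin libraries also lay below all control libraries for Afp and Trf, with log2 fold changes of -0.58 and -0.86. The other 8 hepatocyte markers tested had positive log2 fold changes, so that the median of the 10 was 1.60. Among these 8, Gpc3 at 2.73 met the study's threshold, and the others, such as Alb at 1.57, had overlapping groups. Some of them rest on low counts, such as Ttr at 0 to 24 counts per library. The summed level of all 12 hepatocyte markers, most of it Trf in the control libraries, was 369 to 432 CPM there and 209 to 362 CPM in the luteolin libraries. The part of these markers in the Tnfrsf10b difference was not tested. Over all tested genes, every luteolin library lay below every control library for 12.8% and above for 15.9%. Among the 10 genes these counts were 1 (Tnfrsf10b) and 6.

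**Figure D2:**
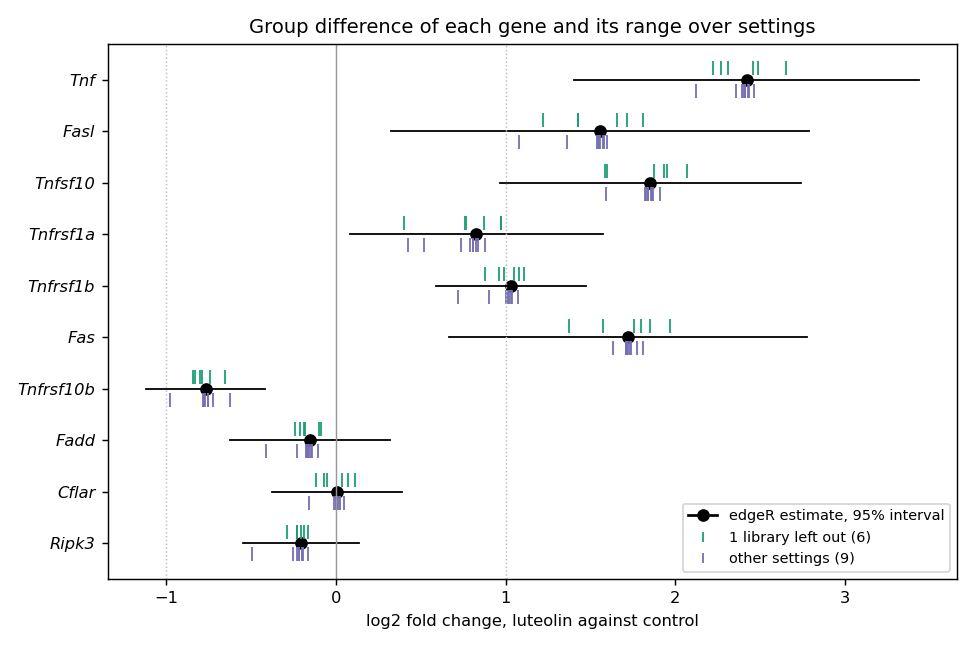
Log2 fold change of each of the 10 genes, luteolin against control, as the edgeR estimate (black dot) with its 95% interval (line). Green ticks above give the 6 values with 1 library left out, purple ticks below the 9 values under the other settings, and dotted lines mark a 2-fold difference. Tnf is farthest to the right at 2.42, Tnfrsf10b is the only interval wholly below 0, and the intervals of Fadd, Cflar and Ripk3 include 0.

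The promoters of 9 of the 10 genes were found in RefSeq (build GRCm38.p6, 250 bases before to 50 bases after the start), and Tnfrsf10b was the exception. They were searched on both strands for the gamma-activated sequence TTCNNNGAA (GAS), found in genes that respond to interferon-γ, for the interferon regulatory factor motif (GAAA, any 2 bases, GAAA) and for the NF-κB consensus. GAS letters were in the promoters of Tnfrsf1a, Tnfrsf1b and Fas, which were all the receptors searched. They were not in those of Tnf, Fasl and Tnfsf10, which were also higher in the luteolin group, nor in those of the intracellular parts. GAS letters are in 8.29% of 32817 mouse promoters of the same length. Interferon regulatory factor letters were in those of Tnfrsf1b and Cflar, against 3.43% of all promoters. NF-κB consensus letters were in 0 of the 9, against 8.46%. No match overlapped another. A match describes letters in this window and was not tested as a site. The 3 receptor promoters are shown for these letters, in capitals, each 5′ to 3′ on the strand of its gene.
Tnfrsf1a promoter, chr6:125349473-125349772, plus strand: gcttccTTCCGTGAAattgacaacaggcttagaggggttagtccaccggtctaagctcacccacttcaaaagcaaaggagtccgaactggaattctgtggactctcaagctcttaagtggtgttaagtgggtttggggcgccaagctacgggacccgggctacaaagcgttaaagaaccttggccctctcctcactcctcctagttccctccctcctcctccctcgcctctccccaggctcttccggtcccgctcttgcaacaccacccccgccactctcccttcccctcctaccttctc
Tnfrsf1b promoter, chr4:145246821-145247120, minus strand: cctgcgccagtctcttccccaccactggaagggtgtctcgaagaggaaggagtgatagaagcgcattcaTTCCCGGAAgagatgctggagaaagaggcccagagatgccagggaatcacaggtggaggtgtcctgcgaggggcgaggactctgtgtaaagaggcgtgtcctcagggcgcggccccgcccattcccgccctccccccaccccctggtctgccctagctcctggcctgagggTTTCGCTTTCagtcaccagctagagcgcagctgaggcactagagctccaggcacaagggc
Fas promoter, chr19:34290409-34290708, plus strand: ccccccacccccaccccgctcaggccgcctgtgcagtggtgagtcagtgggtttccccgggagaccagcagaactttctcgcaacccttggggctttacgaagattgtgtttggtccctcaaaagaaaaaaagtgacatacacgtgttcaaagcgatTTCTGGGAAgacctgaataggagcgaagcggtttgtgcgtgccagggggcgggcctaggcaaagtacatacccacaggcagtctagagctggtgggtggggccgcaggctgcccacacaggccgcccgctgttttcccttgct

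The groups overlapped for all 3 intracellular parts. Fadd, the adaptor that links Fas and the TRAIL receptor to caspase-8, had 14.9, 15.9 and 17.7 CPM in the control libraries and 13.4, 16.0 and 14.2 CPM in the luteolin libraries. Its log2 fold change of -0.16 had a 95% interval of -0.63 to 0.32. An antisense gene, Faddos, overlaps Fadd, and its reads cannot be told apart from those of Fadd where counting did not use strand. Cflar (c-FLIP) had 161, 207 and 198 CPM against 204, 166 and 199 CPM, a log2 fold change of 0.0045 with a 95% interval of -0.38 to 0.39. Ripk3, the kinase of necroptosis, had 94.7, 88.5 and 77.0 CPM against 73.5, 79.2 and 72.9 CPM, a log2 fold change of -0.21 with a 95% interval of -0.55 to 0.13. The intervals of these 3 genes do not reach a 2-fold difference in either direction, and the edgeR adjusted p values were 0.727, 0.993 and 0.483 after Benjamini-Hochberg adjustment.

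Levels of different genes were compared as CPM per kilobase of the longest coding transcript in GENCODE M21. In the control group Tnfrsf10b was highest, at 64.7 to 70.1 CPM per kilobase, followed by Ripk3 at 39.2 to 48.2. Cflar (24.6 to 31.5) and Tnfrsf1a (27.2 to 33.6) overlapped each other, and Tnfrsf1b (11.3 to 13.9) and Fadd (3.83 to 4.54) followed. Fas (0.802 to 2.14), Tnf (0.653 to 0.933) and Tnfsf10 (0.484 to 0.947) overlapped, and Fasl was lowest at 0.200 to 0.327. The receptors and intracellular parts other than Fas thus exceeded every ligand in every control library. In the luteolin group Tnfrsf10b (34.0 to 43.6), Tnfrsf1a (36.3 to 81.0) and Ripk3 (37.1 to 40.3) overlapped at the top. Fas (4.44 to 6.35) and Tnf (2.58 to 5.60) now overlapped with Fadd (3.42 to 4.11) or lay above it, and Fasl remained lowest at 0.548 to 0.977 CPM per kilobase.

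To compare ligands with receptors and with the cells that make them, 13 log2 ratios were formed within each library. They depend on the scaling between libraries only through the 0.1 CPM added to each value, which weighs most for genes at low levels such as Fasl. In 4 of them the groups did not overlap, and an exact two-sided permutation test gave p = 0.1 for each, the smallest value that 3 libraries against 3 allow (0.325 after Benjamini-Hochberg adjustment over the 13 ratios). The ratio of Tnfsf10 to its receptor gene Tnfrsf10b averaged -5.87 ± 0.47 (control) and -3.26 ± 0.59 (luteolin) on the log2 scale (SD, n = 3 each), a difference of 2.61. Every luteolin library lay above every control library for Tnfsf10 and below for Tnfrsf10b. Groups of this ratio therefore could not overlap, and its p value adds nothing to the values of the 2 genes. The ratio of Tnf to Tnfrsf1a differed by 1.54 and that of Tnf to the summed macrophage and monocyte markers by 1.71, both higher in the luteolin group. The ratio of Cflar to Casp8, the gene of caspase-8, differed by 0.18 in the same direction, with SDs of 0.08 and 0.10.

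Tnf, Fasl and Tnfrsf1b were also set against leukocyte genes. Ptprc, the gene of the pan-leukocyte antigen CD45, had 61.1 ± 17.7 CPM in the control group and 136 ± 11.1 CPM in the luteolin group (SD, n = 3 each). The ratio of Tnf to Ptprc was higher by 1.09 on the log2 scale with overlapping groups (exact permutation p = 0.2). Fasl relative to the summed T and NK cell markers was lower by 0.67 (exact permutation p = 0.2), and relative to Ptprc it differed by 0.18 (exact permutation p = 0.8). Tnfrsf1b relative to Ptprc differed by -0.17 (exact permutation p = 0.7). All groups of the last 4 ratios overlapped, and with 3 libraries a group the test cannot fall below 0.1.

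**Figure D3:**
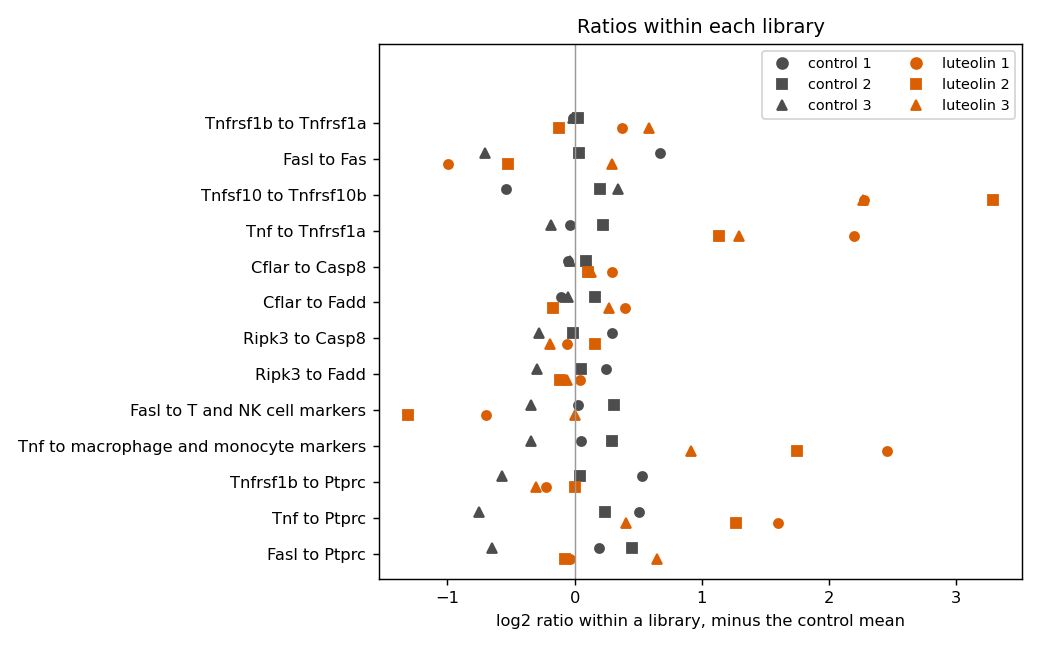
Log2 ratio of 2 genes, or of a gene to a summed marker list, in each library, drawn as the difference from the control mean of that ratio (vertical line at 0). Grey markers are control libraries, orange markers luteolin libraries, and shapes give the replicate. The ratio of Tnfsf10 to Tnfrsf10b is farthest to the right with a mean difference of 2.61, a separation that follows from the values of the 2 genes. The ratios of Fasl and Tnfrsf1b to Ptprc overlap between the groups.

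The wider pathway was read from 7 lists arranged by role, which hold 105 genes in all, 105 of them tested. Without the 10 genes above, 8 of the remaining 95 rose at an adjusted p under 0.05 and 0 fell, where 1.34% of all tested genes rose and 0.187% fell. At the study's threshold 22 of the 95 were higher and 0 lower, where 11.3% of all tested genes were higher and 1.52% lower. The same shares apply to the counts at this threshold in the lists below. Counts by role differed, and the difference between roles was not tested.

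Among the 8 death ligands, counting the 3 above, 7 met the study's threshold upwards and the median log2 fold change was 1.78. The other 4 were Lta and Ltb, the lymphotoxin genes (2.34 and 1.89), Tnfsf14 (1.71) and Tnfsf12 (1.13). Tnfsf15, an endothelial ligand of death receptor 3, had the lowest log2 fold change at -0.67 with overlapping groups. Lta lay at 0.23, 0.29 and 0.09 CPM in the control libraries and at 0.77, 2.17 and 0.20 in the luteolin libraries, so that its groups overlapped. Without luteolin replicate 2 the log2 fold changes of Lta and Ltb were 1.25 and 1.05. Lta did not meet the study's threshold without that library, with voom or with GC content and length offsets (unadjusted p = 0.234, 0.117 and 0.0549 in the fits across all genes).

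Of the 15 receptors and decoys, Tnfrsf11b and Tnfrsf21 rose. Tnfrsf11b encodes osteoprotegerin, a soluble decoy that binds TRAIL as well as RANKL. It had 1.59, 0.86 and 1.47 CPM in the control libraries and 10.9, 8.62 and 7.01 CPM in the luteolin libraries, without overlap, a log2 fold change of 2.75 (edgeR adjusted p = 0.0347 after Benjamini-Hochberg adjustment). Tnfrsf21, the gene of death receptor 6, rose by 1.44 on the log2 scale (edgeR adjusted p = 0.0394 after Benjamini-Hochberg adjustment). Tnfrsf12a, the TWEAK receptor gene, had a log2 fold change of -0.05. The decoy TRAIL receptor gene Tnfrsf22 averaged 143 CPM in control and 79.5 CPM in luteolin libraries, a log2 fold change of -0.85 in the direction of Tnfrsf10b (edgeR adjusted p = 0.186 after Benjamini-Hochberg adjustment). Tnfrsf22, Tnfrsf23 and Tnfrsf26 are close copies, so the share of reads given to each is uncertain. Tnfrsf23 had a log2 fold change of -0.71, whereas Tnfrsf26 had 1.47 and met the study's threshold upwards.

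Of the 8 shedding genes 1 rose and 0 fell. Adam17, the protease that releases TNF from the membrane, had a log2 fold change of 0.02 and Rhbdf2, which carries it to the surface, of 0.65 (edgeR adjusted p = 0.979 and 0.267 after Benjamini-Hochberg adjustment). Timp3, the gene of an inhibitor of ADAM17, rose by 2.50 (edgeR adjusted p = 0.0331 after Benjamini-Hochberg adjustment), from 22.4 ± 4.74 to 127 ± 37.5 CPM (SD, n = 3 each), and was the gene that passed. Erap1 had the lowest value of this list at -0.64.

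Of the 28 receptor complex, ubiquitin and kinase parts, 1 rose and the median log2 fold change was -0.01. That gene was Tnfaip3, whose product A20 trims ubiquitin chains from the TNF receptor complex and ends NF-κB signalling. It had 22.8, 23.4 and 21.5 CPM in the control libraries and 46.9, 50.2 and 42.3 CPM in the luteolin libraries, a tight separation with a log2 fold change of 1.04 (edgeR adjusted p = 0.0393 after Benjamini-Hochberg adjustment). Traf3 met the study's threshold at 1.58. The core parts had log2 fold changes of -0.28 for the adaptor gene Tradd, -0.38 for Traf2, -0.25 for the kinase gene Ripk1, -0.31 and 0.19 for the ubiquitin ligase genes Birc2 and Birc3, and -0.82 for the caspase inhibitor gene Xiap, with edgeR adjusted p values of 0.187 or more after Benjamini-Hochberg adjustment.

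In the list of the death-inducing complex and caspases, 0 of 16 genes passed the adjusted edgeR test, 1 had an unadjusted p under 0.05, and the median log2 fold change was -0.18. Casp8 had 92.2, 107 and 112 CPM in the control libraries and 91.8, 84.9 and 99.8 CPM in the luteolin libraries, and Bid had a log2 fold change of -0.30. The values of Diablo and Casp8ap2 were -0.37 and -0.60.

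Of the 8 necroptosis parts, Zbp1 rose, by 2.07 on the log2 scale (edgeR adjusted p = 0.0437 after Benjamini-Hochberg adjustment). Zbp1 is an interferon-inducible nucleic acid sensor that engages RIPK3. It had 8.06, 12.9 and 10.7 CPM in the control libraries and 35.2, 65.7 and 32.0 CPM in the luteolin libraries. Mlkl, whose product forms the pore of necroptosis, had a log2 fold change of -0.09, Ppm1b of -0.28 and Pgam5 of -0.31.

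Of 26 genes that TNF induces through NF-κB in many cells, 4 rose (Tnfaip2, Tnfaip3, Il1b and Cxcl2), 10 met the study's threshold upwards and the median log2 fold change was 0.83. Il1b, the interleukin-1β gene, rose by 3.02 and Tnfaip2 by 1.23 (edgeR adjusted p = 0.0331 for both after Benjamini-Hochberg adjustment). Icam1, a leukocyte adhesion gene, had 1.59, of which 1.08 was left without luteolin replicate 2. Nfkbia, the NF-κB inhibitor gene, had 0.36, and Sod2 was lowest at 0.03, both with overlapping groups. Macrophages and neutrophils also express many of these genes. The summed level of 8 neutrophil markers was 19.0 to 22.4 CPM in the control libraries and 81.3 to 182 in the luteolin libraries. The control sum was mostly Csf3r (12.0 to 16.2 CPM). Of the 7 markers tested, 5 met the study's threshold upwards. Ly6g and Retnlg did not, with log2 fold changes of -0.57 and 0.43 and overlapping groups. The part of macrophages and neutrophils was not tested.

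**Figure D4:**
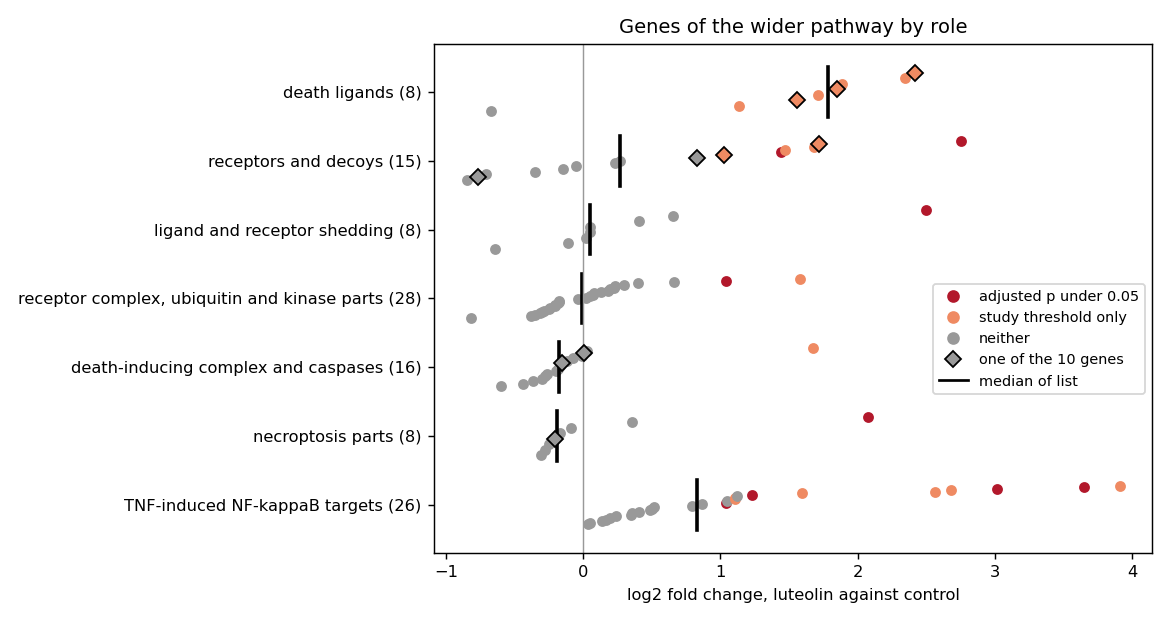
Log2 fold change, luteolin against control, of every tested gene in the 7 role lists, with the number of genes in parentheses. Dark red genes passed at an adjusted p under 0.05 in edgeR, light red genes met the study's threshold only, outlined diamonds are the 10 genes, and a black line gives the list median. The ligand list has its median at 1.78 and the NF-κB target list at 0.83, while the 4 lists of shedding, complex, caspase and necroptosis parts have medians between -0.19 and 0.05.

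The pattern of each gene that met the study's threshold was compared with all tested genes, as the root mean square difference of log2 CPM over the 6 libraries after centring each gene on its own mean. Closest to Tnfsf10 were Irgm2 (0.068), Fgl2 (0.088) and Ctla4 (0.117), and closest to Fas were Ddx60 (0.129), Ifi47 (0.139) and C1s2 (0.157). Tnfrsf1b lay nearest to Sdc3 (0.076), Pik3r6 (0.082) and Itgal (0.082). The closest genes to Tnf were Nr4a3 (0.218), Clmp (0.228) and Npy1r (0.236) and those to Fasl Tm4sf19 (0.144) and Rem1 (0.222). Among the 10 genes themselves, Tnfrsf1b and Tnfrsf1a (0.25) and Fas and Tnfsf10 (0.32) were the closest pairs formed by these 5 genes, while Tnf lay at 0.57 or more from every other. These differences describe 6 libraries that share the contrast and carry no test.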

How the data were processed

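RNA of 6 tumour libraries, 3 per group, was sequenced. The study's methods name Trizol, a TruSeq kit and a NovaSeq instrument, whereas the labels name an RNeasy and a SMARTer kit. The authors deposited 1 whole-number value per gene symbol and library, without scaling across libraries, taken here as estimated counts. The submitters' processing notes list HISAT2, StringTie and DESeq2 with the builds mm39 and rn6, and counting settings and annotation are not given in the sources used here. Multiples of 4 made up 44.8% of values up to 40 (25% for an even spread), so 1 read pair may count as several units. Column totals were 61081637 to 80442954, 0 columns were left out, and 0 pairs of libraries were identical. Intervals cover the spread between libraries.

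Counts were compared in R 4.3.3 with edgeR 4.0.16 (TMM, filterByExpr, quasi-likelihood test, no covariates), two-sided, with Benjamini-Hochberg adjustment over all 14963 genes tested. CPM were scaled to TMM-normalized totals, and log2 CPM had a prior count of 2. Ratios used CPM plus 0.1 and exact permutation tests. Alternatives were DESeq2 1.42.0, voom of limma 3.58.1, other normalizations and filters, division of all values by 4, splines of GC content (4 degrees of freedom) and length (3) as offsets, blocking on replicate number, and omission of each library in turn. The code was tested on simulated data. The 10 genes and all lists were chosen with earlier results of these data known. Named are the 10 genes, a fixed set of pathway genes, the 2 genes with the smallest p and the lowest fold change of each pathway list, the leading markers, and the 3 genes nearest in pattern. Hnf4a, Gpc3, Tnfsf12, Tnfsf14, Cxcl2, Ly6g, Retnlg and the copies Tnfrsf23 and Tnfrsf26 were named after their values were seen. Some genes that the rule names are not reported here.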

Additional observations from a re-analysis of the deposited data

How the results depend on the processing

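Tnf, Fas and Tnfsf10 met the study's threshold under all 15 alternatives, and the 7 genes with an unadjusted p under 0.05 kept their direction in each. At an adjusted p under 0.05 the 10 genes gave 0 higher and 0 lower in the reported test. Higher counts were 4 (DESeq2), 5 (voom), 2 (RLE), 1 (upper quartile), 3 (at least 10 counts in every library), 3 (values divided by 4) and 4 (GC content and length offsets), and 1 gene (Tnfrsf10b) was lower with DESeq2, voom and the GC offsets. With 1 library left out, 0 to 1 were higher and 0 to 0 lower, with 3 to 5 higher and 0 lower at the study's threshold. Their median log2 fold change was 0.64 to 1.04 with a library left out, 0.71 with voom and 0.57 with the GC offsets, which moved the median of all genes to -0.24. Relative to that shift the 10 genes stood at 0.81, against 0.94 as reported.

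Of the 105 pathway genes, 8 rose. The counts were 25, 27, 13, 19 and 1 with DESeq2, voom, at least 10 counts, GC offsets and the replicate block, with 1, 4 and 2 lower in DESeq2, voom and GC offsets, and 1 lower at the study's threshold with voom and with GC offsets. With 1 library left out, 0 to 11 were higher and 0 lower, or 22 to 26 higher and 0 to 2 lower at the study's threshold. Without control replicate 1, 2 or 3 or luteolin replicate 1, 0 genes of the whole table passed, and 1907 to 2462 had an unadjusted p under 0.05. Over all genes, 200 rose and 28 fell. The alternatives gave 1543 and 415 (DESeq2), 1886 and 1311 (voom), 345 and 47 (at least 10 counts), 327 and 46 (values divided by 4), 593 and 352 (GC offsets) and 34 and 1 (replicate block), with 498 and 462 lower at the study's threshold for voom and GC offsets against 227. With a library left out they were 0 to 276 and 0 to 36, or 1139 to 2104 and 140 to 305 at the study's threshold. Ratios without overlap numbered 4 to 7. The cause was not tested.

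Deviations from the group mean had correlations of -0.20, -0.09 and 0.06 between control and luteolin libraries with the same replicate number. These values gave no sign of pairing by number, but with 3 libraries per group they cannot exclude it. The replicate block left 0 of the 10 genes at an adjusted p under 0.05 and took Fasl below the study's threshold.

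Among named values, signs changed for Cflar to -0.0030 (DESeq2), -0.0028 (RLE), -0.0093 (no filter) and -0.16 (GC offsets), for Mlkl and Xiap to 0.084 and 0.30 (voom), for Birc3, Adam17, Sod2 and Lyz2 to -0.014, -0.14, -0.079 and -0.019 (GC offsets), for Adam17 to -0.0023 (replicate block) and for the ratio of Fasl to Ptprc to -0.24 (0.5 CPM added). With a library left out the ranges that crossed 0 were -0.12 to 0.11 (Cflar), -0.23 to 0.080 (Mlkl), -0.55 to 0.0054 (Birc2), -1.28 to 0.23 (Xiap), -0.16 to 0.29 (Adam17), -0.22 to 0.11 (Tnfrsf12a) and -0.082 to 0.077 (Sod2), and for the ratios -0.17 to 0.12 (Ripk3 to Casp8), -0.19 to 0.077 (Ripk3 to Fadd), -0.46 to 0.090 (Tnfrsf1b to Ptprc) and -0.14 to 0.40 (Fasl to Ptprc). Fasl and Lta rest on low counts.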
